A study of Mus musculus musculus x Mus musculus castaneus with 12 samples.

Results

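The aryl hydrocarbon receptor (AHR) pathway was followed through 7 of the 24346 genes in the RNA-seq tables. They are the receptor gene *Ahr*, its partner *Arnt*, its repressor *Ahrr*, and the target genes *Cyp1a1*, *Cyp1b1*, *Tiparp* and *Nqo1*. The genes were taken by symbol, whatever their level. The list was chosen by the level of *Cyp1a1*, which was low in *Kdm6a* knockout (KO) clones of the CB cross, so the values of *Cyp1a1* in every fit that includes CB samples are given as a description, with no test. The levels of the other members were not part of that rule, and these members were tested. The list was still drawn up with earlier results of these data known.

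AHR is a transcription factor that waits in the cytoplasm with the chaperone HSP90 and its co-chaperone p23. Ligands such as dioxins, plant indoles and breakdown products of tryptophan send it to the nucleus, where it pairs with ARNT and binds response elements near its target genes. *Cyp1a1* and *Cyp1b1* encode cytochromes that oxidize aromatic ligands, *Nqo1* encodes a quinone reductase, and the products of *Ahrr* and *Tiparp* limit the receptor in return. In mouse embryonic stem (ES) cells the receptor gene is known to be held at a low level by pluripotency factors and Polycomb proteins.

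The cells were F1 hybrid mouse ES cells of the strains BL6 and *cast* (*Mus castaneus*), with a BL6 mother in the BC cross and a *cast* mother in the CB cross. Of the 12 samples, male BC cells gave 2 of wt and 3 of KO (ΔE1, ΔE3, ΔP4), female BC cells gave 2 of wt, and male CB cells gave 2 of wt and 3 of KO (ΔE2.5, ΔE2.7, ΔP2.1). Each KO sample is a clone with a CRISPR/Cas9 deletion in *Kdm6a*, an X-linked histone demethylase gene. The deletion takes exons in ΔE clones and the promoter region in ΔP clones. ES cells were cultured with serum and leukemia inhibitory factor on inactivated embryonic fibroblasts, which were then depleted by plating on gelatin. Per the study, ΔE1 and ΔE3 share their editing event and also lack *Map3k15*, *Pdha1* and a part of *Sh3kbp1*, and the CB wt line holds an actin-GFP transgene. Each cross and sex is thus represented by a single wt line, and cross, line and transgene cannot be told apart.

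Levels are given in TPM, which scales fragments to transcript length and to the total of the sample, computed from the estimated fragment counts of each gene and the length of its transcript. Samples held 49975599 to 89070402 fragments, with every CB sample below every BC sample. *Kdm6a* was at 49.8 and 51.3 TPM in male BC wt, at 0.0441 to 13.5 TPM in the BC clones, at 51.0 and 51.7 TPM in CB wt and at 0.0364 to 7.28 TPM in the CB clones. All 8 markers of ES cells were above 1 TPM in all 12 samples and summed to 5821 to 16924 TPM. Markers of primitive endoderm summed to 15.9 to 53.6 TPM and those of trophoblast to 9.83 to 87.4 TPM. The 12 fibroblast markers summed to 77.9 and 81.8 TPM in male BC wt, 20.03 to 87.6 TPM in BC KO, 81.0 and 82.7 TPM in female BC wt, 775.0 and 789.8 TPM in CB wt and 79.8 to 1103 TPM in CB KO. Most of the sum in CB wt was *Acta2*, at 683 and 692 TPM, and the sum of the other 11 markers was 91.9 and 98.2 TPM there against 36.9 and 39.6 TPM in male BC wt. No marker was at 0 except 1 of the 12 in 1 female sample.

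Clone ΔP2.1 stood apart from the other CB samples by its alleles. Of the 9933 autosomal genes for which each sample had 20 or more SNP fragments, 176 had a BL6 share under 10% in both CB wt replicates. Of these 176 genes, 76 had a BL6 share between 25% and 75% in ΔP2.1, against 0 in ΔE2.5 and 0 in ΔE2.7. The reverse change was seen for 100 genes in ΔP2.1, for 4 in ΔE2.5 and for 1 in ΔE2.7. On the X chromosome 9.94% of its SNP fragments were BL6, as in CB wt at 9.95% and 9.97%. Results for CB KO are therefore given with and without ΔP2.1.

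*Ahr*, the receptor gene, occupies chr12:35497974-35535038 on the minus strand (GRCm38, as for all positions here). Its level was 6.80 and 6.03 TPM in male BC wt and 6.50 and 5.83 TPM in female BC wt, with ΔE1 at 8.25, ΔE3 at 5.67 and ΔP4 at 8.90 TPM. In the CB cross the receptor was at 16.9 and 16.0 TPM in wt, with ΔE2.5 at 10.0, ΔE2.7 at 11.2 and ΔP2.1 at 15.7 TPM. All 5 CB samples were above all 7 BC samples, and within CB all 3 KO clones were below both wt replicates, ΔP2.1 by the least. The gene *Gm48236* overlaps *Ahr*, and since the library kit does not mark the strand, fragments of the overlap cannot be told apart.

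*Arnt*, the partner that AHR shares with the hypoxia factors, occupies chr3:95434388-95497240 on the plus strand. It varied least of the members, at 64.8 and 56.7 TPM in male BC wt, 64.1, 58.3 and 73.9 TPM in ΔE1, ΔE3 and ΔP4, and 69.2 and 65.8 TPM in female BC wt. CB wt was at 50.7 and 51.1 TPM, and ΔE2.5, ΔE2.7 and ΔP2.1 at 51.1, 51.6 and 52.3 TPM. The lowest BC sample was above the highest CB sample. *Gm42672* overlaps it.

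*Ahrr*, which competes with AHR for ARNT, occupies chr13:74211118-74292331 on the minus strand and was close to the limit of 1 TPM that a gene had to pass in a sample to be tested. It was at 1.09 and 0.926 TPM in male BC wt and 0.733 and 0.485 TPM in female BC wt. ΔE1 had 0.884 TPM and ΔE3 0.854 TPM, whereas ΔP4 stood out at 2.31 TPM, the highest of the 12 samples. In the CB cross it was at 0.581 and 0.647 TPM in wt and at 0.644, 0.675 and 0.455 TPM in ΔE2.5, ΔE2.7 and ΔP2.1, so no CB sample reached 1 TPM.

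*Cyp1a1*, the classical target gene of the receptor, occupies chr9:57687928-57703824 on the plus strand. In male BC wt it had 17 and 13 fragments, 0.209 and 0.152 TPM. The BC clones had 18 fragments in ΔE1, 4 in ΔE3 and 7 in ΔP4, or 0.206, 0.0482 and 0.0850 TPM, and female BC wt had 10 and 7 fragments, or 0.109 and 0.0981 TPM. It was thus under 1 TPM in all 7 BC samples. CB wt had 169 and 185 fragments, 3.33 and 3.64 TPM, against 7 fragments in ΔE2.5, 19 in ΔE2.7 and 56 in ΔP2.1. The clones were at 0.130, 0.365 and 1.12 TPM, which is 3.74%, 10.5% and 32.2% of the CB wt mean. All 3 were below both wt replicates, and ΔE2.5 was within the range of the BC samples. *Cyp1a2*, its neighbour in the family, had at most 3 fragments in any sample.

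*Cyp1b1*, which also metabolizes steroids, occupies chr17:79701537-79715061 on the minus strand. Male BC wt had 2.63 and 2.74 TPM, and ΔE1, ΔE3 and ΔP4 had 1.80, 1.29 and 2.51 TPM. Female BC wt was much lower, at 0.194 and 0.177 TPM. CB wt was at 10.5 and 10.1 TPM, ΔE2.5 at 2.39 TPM, ΔE2.7 at 3.73 TPM and ΔP2.1 at 9.99 TPM. The exonic CB clones were near the BC wt level, and ΔP2.1 was just below the CB wt replicates.

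*Tiparp*, whose product acts back on the receptor, occupies chr3:65528410-65555518 on the plus strand. Male BC wt had 50.8 and 53.8 TPM, the BC clones had 53.2 (ΔE1), 71.8 (ΔE3) and 63.1 TPM (ΔP4), and female BC wt had 51.7 and 47.4 TPM. CB wt was at 53.3 and 55.3 TPM, and ΔE2.5, ΔE2.7 and ΔP2.1 at 43.5, 36.8 and 42.0 TPM. The 3 CB clones were the 3 lowest of the 12 samples. *4931440P22Rik* overlaps the gene.

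*Nqo1* occupies chr8:107388225-107403206 on the minus strand. Male BC wt had 62.3 and 64.9 TPM, followed by 51.0, 113.9 and 51.5 TPM in ΔE1, ΔE3 and ΔP4. Female BC wt had 33.4 and 30.8 TPM, CB wt 47.8 and 49.2 TPM, and ΔE2.5, ΔE2.7 and ΔP2.1 had 52.3, 33.9 and 38.0 TPM. A single clone, ΔE3, was above all other samples.

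**Figure D1:**
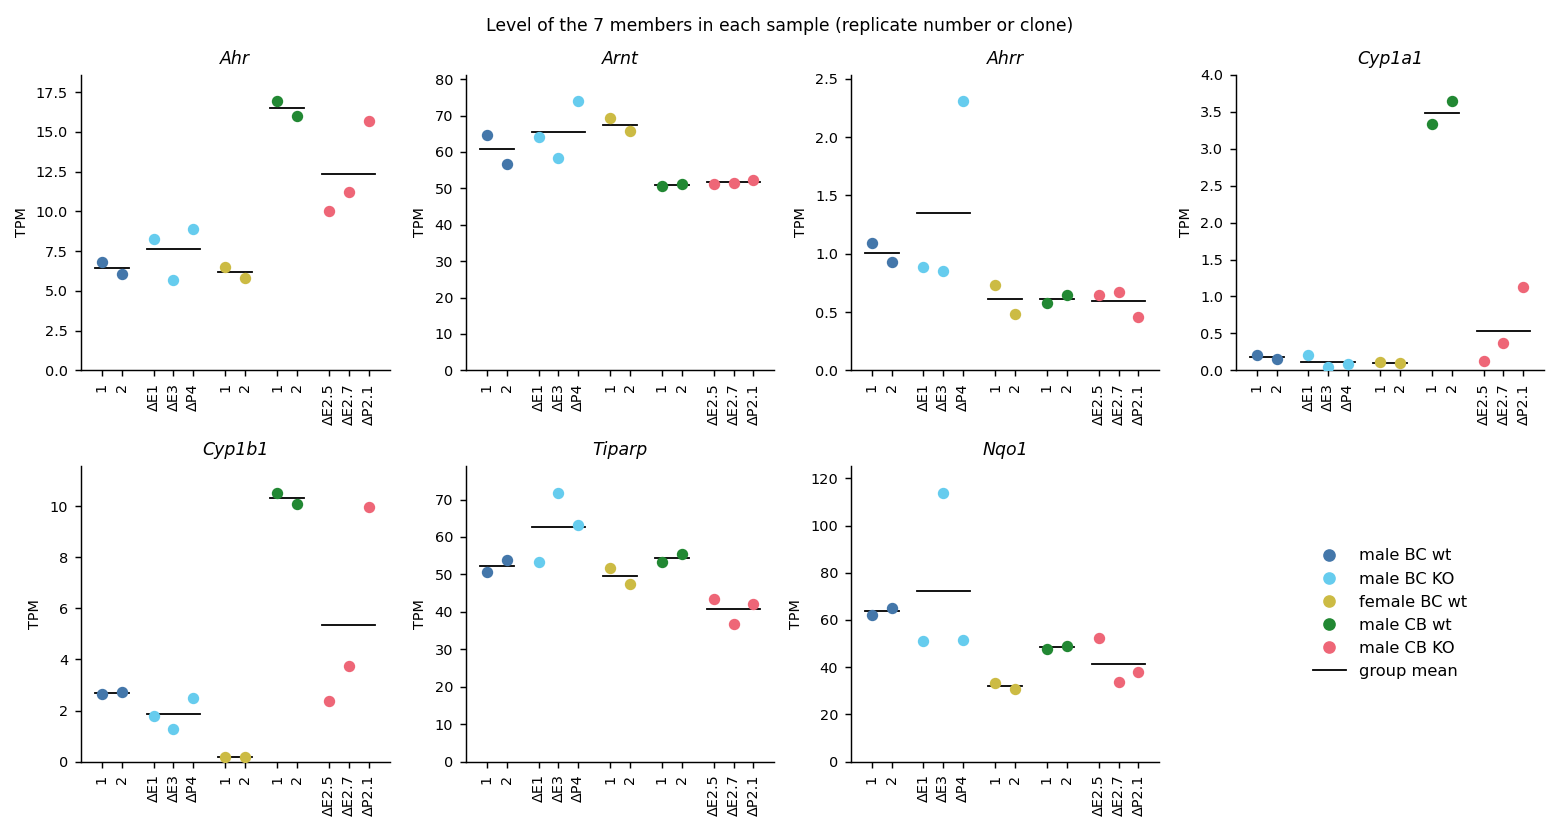
Level of each member in TPM (vertical axis, linear, from 0) in each of the 12 samples, named by replicate number or clone and coloured by group, with the group mean as a line. Points stand for single samples: *Cyp1a1* and *Cyp1b1* are highest in the CB wt replicates, at 3.33 and 3.64 TPM and at 10.5 and 10.1 TPM, and *Arnt* spans only 50.7 to 73.9 TPM.

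The crosses were compared before editing. Between CB wt and male BC wt, 2 of the 6 members tested passed, both higher in CB, as were 15.7% of all genes: *Ahr*, with a mean of 16.5 ± 0.629 TPM against 6.42 ± 0.545 TPM, and *Cyp1b1*, with 10.3 ± 0.316 TPM against 2.69 ± 0.0759 TPM (SD, n = 2). Passing took an FDR below 0.05 together with a fold change of 1.5 or more, which 27.9% of all 14670 genes reached. DESeq2 called the same number of members, 2, and 28.8% of all genes. The log2 fold change from the quasi-likelihood test of edgeR was 1.28 for *Ahr* (standard error 0.23, adjusted p = 0.0018, Benjamini-Hochberg over all tested genes). For *Cyp1b1* it was 1.86 (standard error 0.52, adjusted p = 0.018 by the same edgeR test). *Cyp1a1*, described only, averaged 3.48 ± 0.220 TPM against 0.180 ± 0.0404 TPM, a fitted log2 difference of 4.18.

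The remaining members did not pass. *Arnt* was lower in CB wt by a log2 value of -0.34 (adjusted p = 0.025, edgeR), a change of 1.26-fold and so under the fold threshold. *Ahrr* differed by -0.80 with a standard error of 0.45, *Nqo1* by -0.47 with a standard error of 0.35 and *Tiparp* by -0.03 with a standard error of 0.14. With any 1 of the 4 wt samples left out, *Cyp1b1* kept a log2 fold change of 1.81 to 1.89 but no longer passed (adjusted p = 0.062 to 0.096, edgeR). Over the 6 members tested the median log2 difference was -0.18, against -0.03 over all genes. Fibroblast markers moved with this comparison: 4 of the 10 tested passed, all higher, where 15.7% of all genes were called higher. The sum of the 6 trophoblast markers was 65.1 and 67.3 TPM in CB wt against 16.1 and 16.0 TPM in male BC wt, and that of the 6 endoderm markers 53.6 and 52.7 TPM against 30.5 and 29.4 TPM. The part of these 3 marker lists in the levels of *Ahr*, *Cyp1a1* and *Cyp1b1* was not tested. In bulk samples like these, a change in the number of cells of a type and a change in RNA per cell cannot be told apart.

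In female BC wt *Cyp1b1* was far below the male level. It was 14.7-fold lower in female cells, 0.185 ± 0.0122 TPM against 2.69 ± 0.0759 TPM, and *Nqo1* was 2.02-fold lower, 32.1 ± 1.83 TPM against 63.6 ± 1.85 TPM (SD, n = 2). These were the 2 that passed of the 6 members tested, against 38.8% of all genes (17.3% lower), and DESeq2 also called 2 members, against 39.4%. The log2 fold changes were -3.88 for *Cyp1b1* (standard error 0.61, adjusted p = 4.8e-04) and -1.02 for *Nqo1* (standard error 0.35, adjusted p = 0.032), from edgeR. *Nqo1* no longer passed with any 1 of the 4 BC wt samples left out, at log2 fold changes of -1.07 to -0.97 (adjusted p = 0.081 to 0.13, edgeR). *Ahr* (-0.09), *Arnt* (0.12) and *Tiparp* (-0.11) were close to 0, with standard errors of 0.23, 0.10 and 0.14, and *Ahrr* (-0.76) was low in both sexes. *Cyp1a1*, under 1 TPM in all BC samples and in this fit only through its level in CB, is described without a test (-0.82). Of the 10 fibroblast markers tested, 5 were called lower and 2 higher in female cells, against 38.8% of all genes called and 17.3% called lower. *Thy1*, at 66.3 and 67.4 TPM, made up most of the female sum. The 8 ES cell markers summed to 16924 and 15529 TPM in female BC wt against 8162 and 7025 TPM in male BC wt. *Dppa5a* weighed most in these sums, with a mean of 7290 TPM against 2157 TPM, and *Klf4* averaged 594 TPM against 56.2 TPM. *Sox2* (1168 against 1048 TPM) and *Tdgf1* (788 against 743 TPM) differed little. The endoderm sum was 16.3 and 15.9 TPM in female cells against 30.5 and 29.4 TPM in male BC wt. Its markers went both ways. *Dab2* (mean 6.74 against 21.7 TPM) and *Foxa2* (0.162 against 2.67 TPM) were lower in female cells, and *Gata6*, *Gata4*, *Sox17* and *Sox7* were higher. On chromosome 8, which holds *Nqo1*, the median BL6 share of the other genes was 66.8% and 67.1% in male BC wt. In female BC wt it was 44.2% and 44.4%. The part of these markers in the values of *Cyp1b1* and *Nqo1*, and that of chromosome 8 in *Nqo1*, was not tested.

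**Figure D2:**
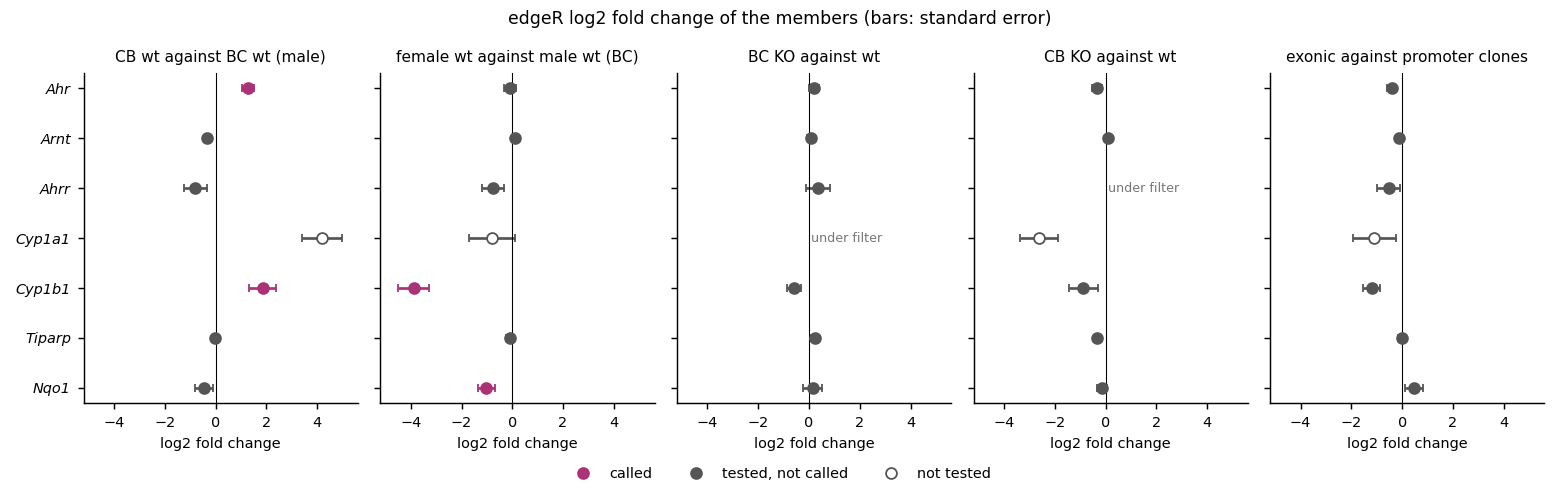
Log2 fold change of each member (horizontal axis) in 5 comparisons fitted with edgeR, with its standard error as a bar. Filled purple points passed the test, filled grey points did not, and open points are *Cyp1a1* values given without a test; the only points that passed are *Ahr* and *Cyp1b1* between wt crosses and *Cyp1b1* and *Nqo1* between sexes.

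*Kdm6a* KO in the CB cross was the comparison from which the list came. *Cyp1a1* averaged 0.539 ± 0.519 TPM in the clones (SD, n = 3) against 3.48 ± 0.220 TPM in wt (SD, n = 2), a fitted log2 difference of -2.62 with a standard error of 0.74, or -3.73 without ΔP2.1. Of the 5 other members that could be tested, none was called with all 3 clones, where 0 of 13800 genes (0.00%) were. At an unadjusted p under 0.05, 1 of the 5 members and 20.5% of all genes were found, and DESeq2 called 0 of the 5 members and 3.58% of all genes. *Ahrr* was under 1 TPM in all CB samples and was not tested. On the TPM scale *Ahr*, *Cyp1b1* and *Tiparp*, of the 5 members tested, were below both wt replicates in all 3 clones, as were 32.3% of all genes. *Cyp1a1* was too, but it chose the list by its low level in these clones and is left out of this tally.

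The member found at an unadjusted p was *Tiparp*, with log2 fold change -0.34 and standard error 0.09 (unadjusted p = 0.011, adjusted p = 0.17 by edgeR). Its clones were at 80.1%, 67.7% and 77.4% of the wt mean. *Ahr* had the same log2 fold change of -0.34 but a standard error of 0.20 (adjusted p = 0.37, edgeR), with ΔE2.5 at 60.9%, ΔE2.7 at 68.2% and ΔP2.1 at 95.4% of wt. *Cyp1b1* was at -0.87 with a standard error of 0.58 (adjusted p = 0.42, edgeR), and its clones spread from 23.2% in ΔE2.5 and 36.2% in ΔE2.7 to 96.9% in ΔP2.1. *Arnt* (0.10, standard error 0.06) and *Nqo1* (-0.15, standard error 0.20) were not called either.

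Without ΔP2.1 the KO samples were the 2 exonic clones, and 6.72% of all genes were called. *Cyp1b1* then passed, with log2 fold change -1.67 (standard error 0.24, adjusted p = 0.030 by edgeR), the only 1 of the 5 members to do so. *Ahr* reached adjusted p = 0.036 by edgeR at a log2 fold change of -0.55, a change of 1.46-fold that stayed under the fold threshold. *Tiparp* was at -0.35 (adjusted p = 0.080, edgeR). The fibroblast marker sum moved in the same order over these clones, at 10.2% of the wt mean in ΔE2.5, 39.1% in ΔE2.7 and 141% in ΔP2.1. Without *Acta2* the sums were 33.6, 49.3 and 143.2 TPM in ΔE2.5, ΔE2.7 and ΔP2.1. In ΔP2.1 *Cyp1a1* was at 32.2% of wt while the marker sum, mostly *Acta2*, was above wt. Single markers lay on both sides of the wt replicates in that clone. The part of the markers in the values of *Cyp1a1*, *Cyp1b1* and *Ahr* was not tested.

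**Figure D3:**
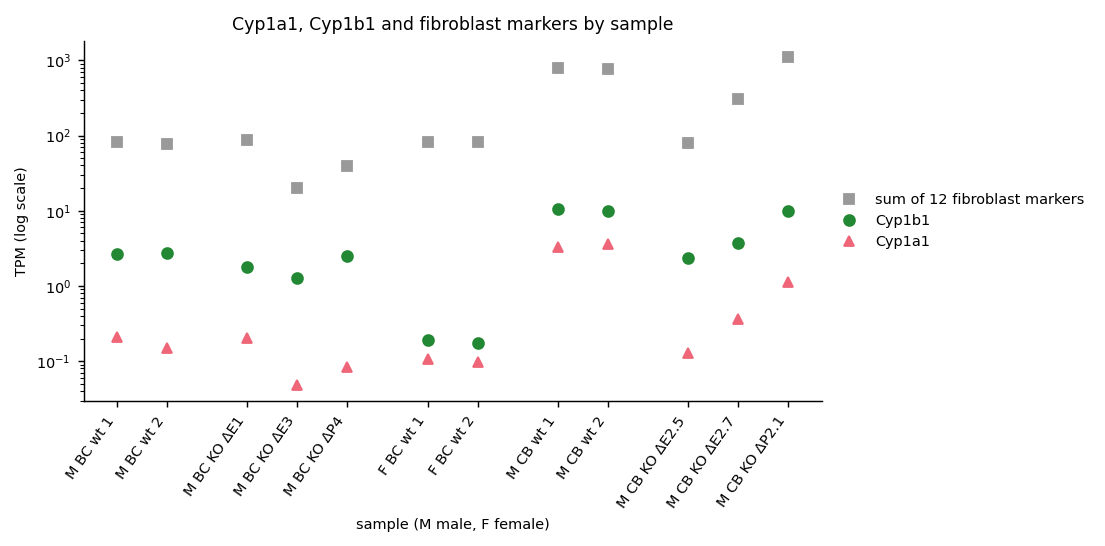
Level of *Cyp1a1* (triangles), *Cyp1b1* (circles) and the sum of the 12 fibroblast markers (squares) in TPM on a log axis, for each of the 12 samples. Within the CB cross all 3 quantities are lowest in ΔE2.5, at 0.130, 2.39 and 79.8 TPM; in ΔP2.1 the marker sum is above wt at 1103 TPM while *Cyp1a1* is below wt at 1.12 TPM.

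In the BC cross no member was called between KO and wt, among 6 tested and against 4 of 13804 genes (0.0290%). None of the 6 was at an unadjusted p under 0.05, where 11.0% of all genes were, and DESeq2 called 0 of the 6 and 1.88% of all genes. *Cyp1a1* was not tested, as it was under 1 TPM in all BC samples. *Cyp1b1* was closest, with log2 fold change -0.58 (standard error 0.28, adjusted p = 0.50, edgeR), and its values in ΔE1, ΔE3 and ΔP4 were 67.0%, 48.1% and 93.3% of the wt mean. It was the only member tested that was below both wt replicates in all 3 clones, as were 10.9% of all genes. The fibroblast marker sum in the same clones was at 110%, 25.1% and 49.6% of wt, and its part was not tested. *Ahr* (0.20, standard error 0.21), *Tiparp* (0.22, standard error 0.15), *Arnt* (0.06, standard error 0.13), *Ahrr* (0.36, standard error 0.46) and *Nqo1* (0.15, standard error 0.37) had small changes relative to the spread of the clones. The mean of *Ahrr* rested on ΔP4, at 228% of wt, and without that clone its log2 fold change was -0.23. Likewise the mean of *Nqo1* rested on ΔE3, at 179% of wt, and without ΔE3 it was -0.37.

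Chromosome 8, which holds *Nqo1*, had lower levels in the BC exonic clones than in male BC wt. Its median BL6 share was 66.8% and 67.1% in male BC wt and 67.7% in ΔP4. In ΔE1 and ΔE3 it was 51.1% and 51.6%, near their medians over all autosomes of 51.9% and 52.0%. What sets these shares was not tested. The median log2 change of the 718 other genes tested on chromosome 8 was -0.42 in ΔE1 and -0.46 in ΔE3, against 0.12 in ΔP4. *Nqo1* itself was at -0.31, 0.83 and -0.30 on the same scale, log2(TPM + 1) relative to the wt mean. In ΔE3 it was thus above wt on a chromosome whose median was below wt. For the other members the median of the chromosome stayed between -0.14 and 0.14 in all 6 clones.

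Whether the KO effect differed between crosses was tested as an interaction of cross and KO over the 10 male samples. None of the 6 members tested passed, against 0.0629% of all 14300 genes (no fold threshold), and DESeq2 called 0 of the 6 against 4.44%. *Tiparp* alone was at an unadjusted p under 0.05, at an interaction of -0.57 on the log2 scale with a standard error of 0.18 (unadjusted p = 0.012, adjusted p = 0.20 by edgeR), where 16.7% of all genes were. It was above the wt mean in all 3 BC clones, at 102%, 137% and 121%, and below it in all 3 CB clones, but ΔE1 was within the range of its wt replicates. *Ahr* was at -0.55 with a standard error of 0.31 (adjusted p = 0.38), and *Cyp1b1* at -0.30 with a standard error of 0.70 (adjusted p = 0.85), by the same edgeR test. Without ΔP2.1 these were -0.76 (adjusted p = 0.15) and -1.11 (adjusted p = 0.16), and no member passed by edgeR.

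Exonic and promoter deletions were compared over the 6 clones with the cross as covariate. No gene of 14171 was called (0.00%), and so no member. *Cyp1b1* was lower in exonic clones by a log2 value of -1.20 with a standard error of 0.33 (unadjusted p = 0.0078, adjusted p = 0.95, edgeR), while 4.83% of all genes were at an unadjusted p under 0.05. DESeq2 gave adjusted p = 0.13 for it and called 0.212% of all genes, none of them a member. In BC the exonic clones were at 1.80 and 1.29 TPM and the promoter clone at 2.51 TPM, and in CB at 2.39, 3.73 and 9.99 TPM. All 4 exonic clones were thus below the promoter clone of their cross for *Cyp1b1*. Each cross had only 1 promoter clone, so deletion type and clone cannot be told apart, and without ΔP2.1 the log2 difference was -0.62. *Ahr* showed -0.42 (standard error 0.20), *Nqo1* 0.46 (standard error 0.34) and *Tiparp* 0.00 (standard error 0.16).

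Alleles were compared through fragments with a BL6 or *cast* SNP. In the 10 male and 2 female samples the share of BL6 fragments of *Arnt* was 55.5% to 65.4%, that of *Tiparp* 48.7% to 54.3% and that of *Nqo1* 56.9% to 75.6%. *Cyp1b1* was on the *cast* side, with a BL6 share of 27.0% to 41.0% in the male samples, and had only 10 and 8 SNP fragments in the female ones. *Ahrr* varied from 43.5% to 77.8% on 18 to 147 SNP fragments. *Cyp1a1* had at most 18 SNP fragments outside CB wt, where 29 of 55 and 53 of 75 were BL6, or 52.7% (exact 95% interval 38.8% to 66.3%) and 70.7% (59.0% to 80.6%). Intervals cover counting error only.

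*Ahr* differed from the other members. Its BL6 share was 47.5% in both male BC wt replicates, 47.6% in ΔE1, 40.1% in ΔE3 and 43.2% in ΔP4. In female BC wt 1 of 376 and 4 of 212 SNP fragments were BL6, and in CB wt 2 of 523 and 1 of 503. ΔE2.5 had 0 of 343, which allows a share of up to 0.875%, and ΔE2.7 had 1 of 360. ΔP2.1, from the same cross, had 221 of 464, or 47.6% (exact 95% interval 43.0% to 52.3%). Fragments assigned to BL6 were therefore near 0 in 6 samples and 40.1% to 47.6% of the total in the other 6, regardless of which strain was the mother. The level of *Ahr* did not follow this split, as CB wt was at 16.5 TPM and female BC wt at 6.17 TPM.

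Some genes near *Ahr* had low BL6 shares in the same samples. Of 102 other genes within 25 Mb that had 20 or more SNP fragments in each sample, 28 had a BL6 share under 25% in CB wt, 28 in ΔE2.5, 30 in ΔE2.7 and 36 in female BC wt. In male BC wt, BC KO and ΔP2.1 this was 1 gene each. The median share of these genes was 52.7% in male BC wt, 42.5% in CB wt, 34.2% in female BC wt and 52.1% in ΔP2.1. Over all autosomes it was 52.4% and 52.5% in male BC wt and 50.9% and 50.8% in CB wt. It was 47.5% and 47.4% in female BC wt and 50.5% in ΔP2.1. The share of all autosomal genes under 25% is not given here. Low shares were mixed with shares near 50%: in CB wt *Twist1* was at 0.00% and *Snx13* at 23.6%, and *Tspan13* on the other side of *Ahr* was at 43.4%. Assignment rests on the SNPs of the BL6 and *cast* references, so a low share of BL6 fragments may not be read as silence of that allele, and what sets the shares of this region was not tested.

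**Figure D4:**
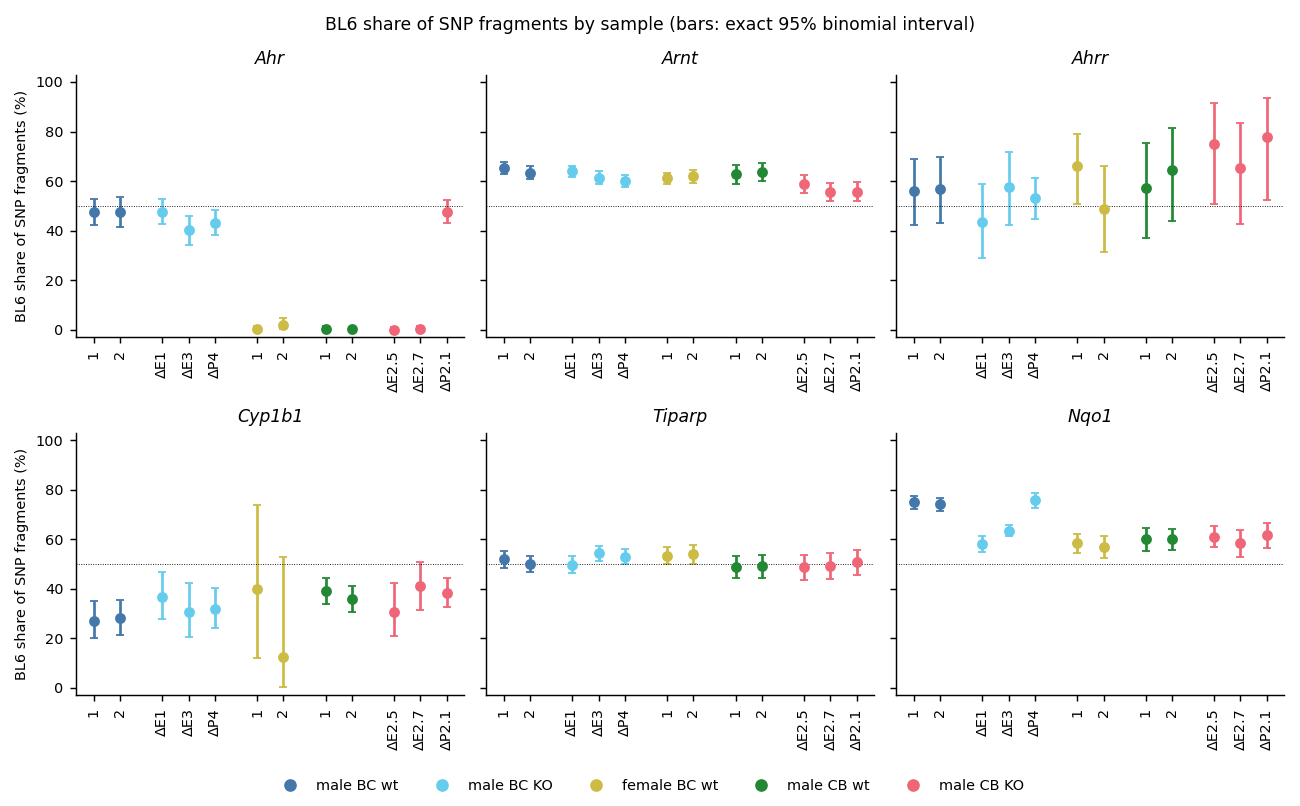
Share of SNP fragments assigned to BL6 (vertical axis, percent) for 6 members in each of the 12 samples, with exact 95% binomial intervals as bars. *Cyp1a1* is left out for its few SNP fragments; *Ahr* is near 0% in female BC wt, CB wt, ΔE2.5 and ΔE2.7 and between 40.1% and 47.6% in the other samples.

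**Figure D5:**
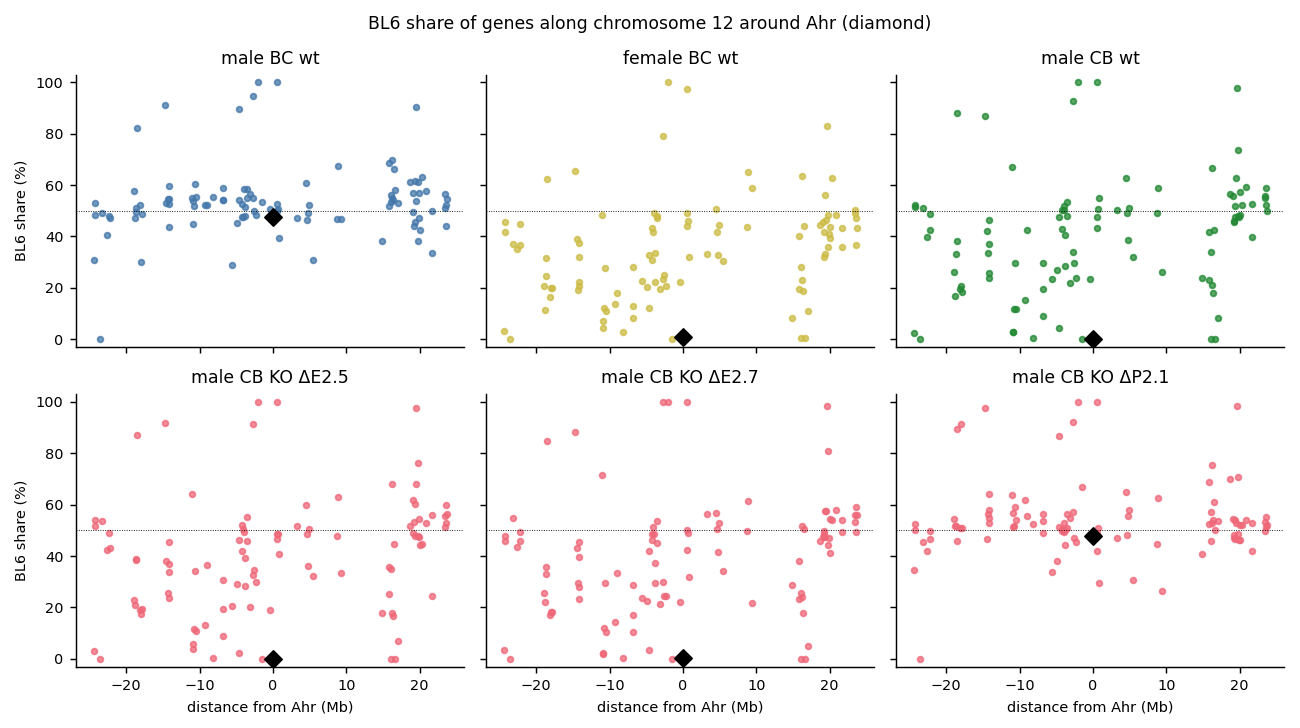
BL6 share (vertical axis, percent) of *Ahr* (diamond) and of 102 other genes (points) against their distance from *Ahr* along chromosome 12 in Mb, in 6 groups or clones. Points under 25% are frequent in female BC wt, CB wt, ΔE2.5 and ΔE2.7, at 28 to 36 genes, and 1 gene is there in male BC wt and in ΔP2.1.

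In male wt cells the BL6 and *cast* fragments were compared in a model with the sample as block. Of the 6 members with enough fragments, 4 passed, against 68.4% of 10465 autosomal genes (FDR alone): *Arnt* (log2 ratio of BL6 to *cast* 0.73, standard error 0.05) and *Nqo1* (0.97, standard error 0.06) were higher from BL6, and *Cyp1b1* (-1.16, standard error 0.11) and *Ahr* were higher from *cast*. The value for *Ahr* averages a line with both alleles and a line with nearly none from BL6 and is not given as a strain effect. That of *Nqo1* averages lines with unlike BL6 shares of chromosome 8, given below, so its size is not read as a strain effect either. BL6 held the larger share of *Nqo1* in both lines. *Tiparp* (-0.10, standard error 0.07) and *Ahrr* (0.40, standard error 0.24) did not pass. The term for the mother's allele was called for 3 members, *Ahr*, *Cyp1b1* (-0.39, standard error 0.11) and *Nqo1* (0.42, standard error 0.07), and for 40.5% of all genes. Each cross is 1 line, so parent of origin and line cannot be told apart in this term. For *Nqo1* the BL6 share was 74.9% and 74.1% in BC wt and 60.0% in both CB wt replicates, and the median share of chromosome 8 moved in the same way, at 66.8% and 67.1% in BC wt and 52.0% and 51.8% in CB wt.

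No member was called for a KO effect on its allele ratio. In BC 0 of 6 were called, against 1 of 10803 genes (0.00926%), with none at an unadjusted p under 0.05 where 5.13% of all genes were. In CB 0 of 5 were called, against 0 of 10267 genes (0.00%), and 1, *Arnt*, was at an unadjusted p under 0.05, where 3.26% of all genes were. Its log2 allele ratio differed by -0.38 (standard error 0.10, unadjusted p = 0.012, adjusted p = 1.00, edgeR), with BL6 shares of 58.8%, 55.5% and 55.7% in the clones against 62.7% and 63.8% in wt. *Nqo1* in BC was at -0.57 (standard error 0.28, adjusted p = 0.85, edgeR). Its BL6 share was 58.1% in ΔE1 and 63.5% in ΔE3 beside chromosome medians of 51.1% and 51.6%, and was 75.6% in ΔP4 beside 67.7%. Without ΔP4 the ratio of *Nqo1* was called in BC, at -0.84 (adjusted p = 0.0017, edgeR), in a fit that called 4.88% of all 10857 genes, or 530.

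Other genes of the pathway were taken as 5 lists with 32 genes. They cover the chaperones of the receptor, relatives and other partners of ARNT, further AHR target genes with the reductase gene *Por*, enzymes of tryptophan breakdown, and the NRF2 pathway, which also drives *Nqo1*. Between KO and wt none was called in either cross, among 21 tested in BC and 23 in CB, with median log2 fold changes of 0.07 and 0.07 against 0.01 and 0.01 over all genes. The chaperone genes *Hsp90aa1*, *Hsp90ab1* and *Ptges3* were all expressed and were not called in any of the 6 comparisons. Between wt crosses 3 of 23 were higher and 2 lower in CB, so that 5 of 23 were called where 27.9% of all genes were. *Slc7a11*, the cystine carrier, was higher by a log2 value of 4.16 and *Hif3a* by 1.12. *Aldh3a1*, an AHR target gene, was at -2.27 and *Gsr*, glutathione reductase, at -0.84 (adjusted p of these 4 genes 0.0022 to 0.0098, edgeR). *Kynu*, which encodes kynureninase, was higher by 1.74 and is counted in the 3. It was under 1 TPM in all BC samples and entered this fit only through CB, so it is described only. *Aldh3a1* was thus lower in CB wt, at 0.768 TPM against 3.50 TPM, where *Cyp1a1* and *Cyp1b1* were higher.

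Between the sexes 6 of the 23 were lower and 1 higher in female BC wt, where 38.8% of all genes were called and 17.3% were called lower. The ES cell markers and the shares of chromosome 8, which holds *Nqo1*, differed in the same comparison, as given above. Their part was not tested. Which other genes of the pathway lists, called here or between wt crosses, lie on chromosome 8 is not given. The NRF2 list held 4 of these 6, of 9 tested, with *Gclc* at -1.57, *Gsr* at -1.42, *Txnrd1* at -0.97 and *Hmox1* at -0.85 on the log2 scale, and its median was -0.74, against 0.00 over all genes. These 4 encode enzymes of glutathione synthesis, glutathione and thioredoxin reduction and heme breakdown, and *Nqo1*, another gene of that pathway, was at -1.02. *Hif3a* (0.76) was higher. Adjusted p-values of the 4 NRF2 genes called and of *Hif3a* were 6.0e-05 to 0.011 by edgeR. *Kynu* (-3.90) and *Ido2* (-1.42), both of tryptophan breakdown, were also lower and are counted in the 6. They were under 1 TPM in all BC samples and entered this fit only through CB, so they are described only. *Kynu* averaged 0.0384 TPM in female against 0.620 TPM in male BC wt, and *Ido2* 0.203 against 0.533 TPM.

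The genes whose levels were most like those of *Cyp1a1* and *Cyp1b1* over the 12 samples were found by Pearson's r of log2(TPM + 1) among 14670 genes, as a description. For *Cyp1a1* they were *Ackr4* (r = 0.968), *Akr1c14* (0.967), *Btn1a1* (0.967), *Angptl7* (0.963) and *Tor4a* (0.963). *Ackr4*, an atypical chemokine receptor gene, was at 6.91 TPM in CB wt and at 1.26 to 1.88 TPM in the CB clones. For *Cyp1b1* they were *Uba1y* (0.987), *Lrrk1* (0.984), *Bdnf* (0.980), *Snx9* (0.977) and *Tmem62* (0.974). *Uba1y* is Y-linked and was at 0.00 TPM in female BC wt, where *Cyp1b1* was also low, at 1.29 TPM in male BC wt and at 4.28 TPM in CB wt. *Bdnf*, a neurotrophin gene, was at 6.16 TPM in ΔP2.1 against 2.61 and 2.42 TPM in the exonic CB clones. These samples share lines and clones, so the coefficients do not stand for 12 independent cultures. None of the 5 genes named for *Cyp1a1* was among the 5 found with Spearman's rho or with a pseudocount of 0.1 in place of 1.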

How the data were processed

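Single-end RNA-seq reads of 12 samples of F1 hybrid mouse ES cells were mapped by the authors with TopHat and bowtie (Bowtie2 2.2.5 in the submitters' processing notes) to BL6 mm10 and to a pseudo-*cast* genome, and reads of high mapping quality were kept. The authors deposited estimated counts of fragments per gene and sample, unnormalized and not pooled, for either genome and for fragments with BL6 or *cast* SNPs; the counting tool and annotation are not given in the sources used here. Fragments with SNPs made up 8.10% to 10.1% (BL6) and 7.84% to 9.81% (*cast*) of the total, so allele values are less precise.

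Symbols of 23310 of 24346 genes were matched to GENCODE vM21 (GRCm38) for positions and for TPM, which used the longest transcript with a RefSeq match. Rounded estimated counts were tested with edgeR 4.0.16 (quasi-likelihood, TMM, Benjamini-Hochberg) in R 4.3.3, with DESeq2 1.42.0 as alternative, over genes that exceeded 1 TPM in any sample of that fit. KO contrasts used the 5 male samples of a cross, in BC without the genes *Sh3kbp1*, *Map3k15* and *Pdha1*, the interaction used the 10 male samples, and wt contrasts used all 12 samples as 5 groups. Allele fits used autosomal genes with 20 or more SNP fragments in each sample. A called gene passed an FDR of 0.05 and, outside interaction and allele fits, 1.5-fold. The CB KO contrast, the contrast of wt crosses and that of BL6 against *cast* alleles were run on simulated counts. Those counts had the same relative spread for every gene and lacked the differences between clones. The maternal term and the KO effect on allele ratios were not simulated. The study describes the wt samples as biological replicates or clones. P-values measure the spread within the groups of a fit. In all main fits except the allele fits of male wt this includes the spread between KO clones, of which ΔE1 and ΔE3 share their editing event. Counts of wt replicates were compared by chi-square per gene, with means of 32.8, 15.9 and 26.8 and medians of 2.79, 1.88 and 0.70 in male BC, female BC and male CB wt. The CB wt median is close to counting noise and its mean is not, and no samples were merged.

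The members and all lists, including the cell type markers, were chosen with earlier results of these data known. Genes named outside the members are those called in the pathway lists, and the 5 most like *Cyp1a1* and *Cyp1b1*. Single chromosome 12 neighbours, *Acta2*, *Thy1*, *Cyp1a2* and the single ES cell and endoderm markers were named after their values were seen. A gene in these lists is counted in the totals and is not reported here. Alternatives were size factors of DESeq2, other filters, fewer or more samples, ΔE1 and ΔE3 averaged, a replicate block and each sample left out. Python 3.11.15 was used for tables.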

Additional observations from a re-analysis of the deposited data

Results flagged for a closer look

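*Tiparp* is listed here because its KO clones lay on opposite sides of wt in the crosses: above the wt mean in all 3 BC clones and below it in all 3 CB clones. The interaction of cross and KO was -0.57 on the log2 scale (standard error 0.18, adjusted p = 0.20 by edgeR), so the difference between crosses did not pass the test.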

How the results depend on the processing

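With 1 sample left out in turn, the number of members called was 1 to 3 between wt crosses, 1 to 3 between the sexes, 0 to 1 for CB KO (1, *Cyp1b1*, without ΔP2.1) and 0 to 1 for the KO effect on allele ratios in BC (1, *Nqo1*, without ΔP4). Without ΔP4 *Ahrr* was called in both wt comparisons, at -0.80 and -0.76 on the log2 scale. Of the samples left in those fits only male BC wt replicate 1 was above 1 TPM, at 1.09 TPM. Male BC wt was also the higher group, so these calls of *Ahrr* are given as a description. The maternal term of *Nqo1* was 0.24 over all 10 male samples and was no longer called. The other counts of members called stayed within 1.5 times under all alternatives.

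Uncalled members changed sign in some alternatives, and the cause was not tested. With 1 sample left out, log2 values ranged for BC KO from -0.029 to 0.15 (*Arnt*), -0.23 to 0.58 (*Ahrr*) and -0.37 to 0.36 (*Nqo1*). For the interaction they ranged from -0.067 to 0.11 (*Arnt*), -0.58 to 0.25 (*Ahrr*), -1.11 to 0.059 (*Cyp1b1*, 0.059 without ΔE2.5) and -0.52 to 0.20 (*Nqo1*). Exonic against promoter clones ranged from -1.33 to 0.55 (*Ahrr*, -0.35 without ΔE1 and 0.55 without ΔP4), -2.16 to 0.65 (*Cyp1a1*, 0.65 without ΔP2.1) and -0.11 to 0.078 (*Tiparp*, -0.034 without ΔE2.5). *Tiparp* ranged from -0.085 to 0.023 between wt crosses. The maternal term ranged from -0.054 to 0.0096 (*Arnt*) and -0.029 to 0.027 (*Tiparp*), and was 0.047 and 0.012 over all 10 male samples. The KO effect on allele ratios in CB ranged from -0.84 (without ΔP2.1) to 5.96 for *Ahr*, -0.14 to 0.15 for *Cyp1b1* (-0.11 and 0.080 without a wt replicate), -0.0032 (without ΔP2.1) to 0.082 for *Tiparp* and -0.016 (without ΔP2.1) to 0.078 for *Nqo1*. With ΔE1 and ΔE3 averaged the interaction of *Arnt* was -0.0032 and the exonic difference of *Tiparp* -0.015, and the latter was -0.0020 with a 5 TPM filter.

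Counts over all genes moved more. For BC KO 4 genes were called by edgeR, against 260 by DESeq2, 58 with all 12 samples in the fit and 1 to 4 with 1 sample left out. For CB KO it was 0, against 494, 54 and 0 to 928 (928 without ΔP2.1). For the interaction it was 9, against 635 by DESeq2, 23 with ΔE1 and ΔE3 averaged and 3 to 308. Exonic against promoter clones gave 0, against 30 by DESeq2, 1 without a filter and 0 to 3. Between wt crosses 4086 genes were called, 2606 to 4319 with 1 sample left out. The KO effect on allele ratios in BC gave 1 gene, 3 with a minimum of 5 SNP fragments and 0 to 530 with 1 sample left out.

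The wt replicates share only a number, and their deviations from the group mean had a correlation of 0.100 over genes between male BC and CB and 0.236 between male and female BC. With that number as a replicate block, in fits of the 2 groups compared, 3 members were called between crosses and 3 between the sexes, as without the block in the same samples. The third was *Ahrr* (-0.78 in both), which was above 1 TPM in these samples only in male BC wt replicate 1, so its calls are a description. Genes called were 5143 and 6589. Taking the union of exons as length raised the TPM of *Ahr* in CB wt to 21.7 and of *Nqo1* in BC wt to 94.6. Each wt group had 2 replicates, so with 1 left out the other is assumed to vary like the remaining groups, and low counts limit *Cyp1a1* in BC and *Ahrr*.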
